A study of Mus musculus with 24 samples.

Results

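The regions described here were bound by Oct4 or Sox2, as far as the deposited peak lists show, in mitotic but not in asynchronous mouse embryonic stem cells. For each factor its 3 lists of chromatin immunoprecipitation sequencing (ChIP-seq) peaks were merged where peaks shared at least 1 bp. Regions were chosen by a peak in both mitotic lists and none in the asynchronous list, and are called mitotic-only. The rule kept 294 of 6604 merged Oct4 regions (4.45%) and 422 of 5667 merged Sox2 regions (7.45%). Their union held 673 of the 9551 regions merged over both factors, and 40 of these were mitotic-only for Oct4 and for Sox2. Oct4 peaks chose the Oct4 members and Sox2 peaks the Sox2 members, so each factor's own values at its members are given as a description, without a test.

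All libraries were from V6.5 cells, an embryonic stem cell line of mixed C57BL/6 and 129 background, expanded with LIF on feeder cells and then, before synchronization, on gelatin with inhibitors of Mek1 and Gsk3 (2i). Mitotic cells had been exposed to nocodazole, which blocks spindle assembly, for 7 h at what the labels give as 100 ug/ml, and were collected by shaking them off the plate. Asynchronous cells received no nocodazole. Cells of all libraries were fixed with 1% formaldehyde for 10 min. Oct4 and Sox2 each had 2 mitotic libraries and 1 asynchronous library, all with the code EC-EA-3702 in their titles. What this title code stands for is not given. Klf4 had 3 libraries per state and acetylated lysine 27 of histone H3 (H3K27ac) had 2 per state. Nothing in the labels says whether replicates came from separate cultures, so p-values measure the spread between these libraries only. A further Klf4 library came from a mix of 10% stem cells and 90% neural progenitors.

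The POU-domain protein Oct4 and the HMG-domain protein Sox2 bind many enhancers of embryonic stem cells together, Oct4 at the octamer ATGCAAAT and Sox2 at an adjoining Sox motif. Klf4 is a zinc finger factor of the same network, and H3K27ac marks active enhancers and promoters. In mitosis chromosomes condense and most transcription stops, and a factor that stays on its site then is said to bookmark it. Sites are usually described as kept or lost as cells enter mitosis, and the regions here are those listed in mitosis alone.

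Few members lay at promoters, and those that did are shown first because sequence was at hand only for promoters. Members overlapped 10 windows running from 250 bases before to 50 after a RefSeq start site (GRCm38.p6), 6 by Oct4 regions and 4 by Sox2 regions. The octamer ATGCAAAT, searched on both strands, was in 3 of the 10 windows and in 1.74% of 32851 such windows. The Sox core (CATTGT or CTTTGT, both strands) was in 4 of 10, against 28.6% of all windows, and a Klf core, GGGNGTGGC, was in 1 of 10, against 5.76%. All of these matches lay inside the member region. A match describes these letters only and is not a binding site.

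The Oct4 region at chr2:180273482-180273789 covers most of the promoter of Cables2, which encodes a Cdk5- and Abl-associated substrate. Its window (chr2:180273416-180273715, minus strand) is shown with its 3 octamers in capitals, each read as ATTTGCAT on the gene's strand.
Cables2: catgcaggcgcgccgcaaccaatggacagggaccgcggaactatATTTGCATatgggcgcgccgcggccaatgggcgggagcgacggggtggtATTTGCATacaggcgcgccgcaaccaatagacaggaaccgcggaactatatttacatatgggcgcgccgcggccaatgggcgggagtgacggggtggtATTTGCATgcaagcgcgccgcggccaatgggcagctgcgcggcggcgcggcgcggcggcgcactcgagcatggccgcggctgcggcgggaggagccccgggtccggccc
Oct4 folds there were 4.40 and 5.5 in mitotic 1 and 2. Sox2 had no listed peak in any of its 3 lists, Klf4 had a peak in mitotic 3 (fold 5.22) and asynchronous 2 (fold 3.12), and H3K27ac had 1 in mitotic 2 (fold 3.69). A listed fold is the authors' ratio of peak signal to local background.

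The Sox2 region at chr19:53460376-53460630 lies over the start of the noncoding gene 4833407H14Rik (window chr19:53460372-53460671, plus strand), with 1 octamer and 1 Klf core in capitals.
4833407H14Rik: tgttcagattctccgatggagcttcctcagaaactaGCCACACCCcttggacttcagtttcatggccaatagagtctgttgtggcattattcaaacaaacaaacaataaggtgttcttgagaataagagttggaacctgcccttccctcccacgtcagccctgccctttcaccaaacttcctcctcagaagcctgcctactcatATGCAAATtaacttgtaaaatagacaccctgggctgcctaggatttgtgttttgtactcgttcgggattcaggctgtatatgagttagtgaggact
Sox2 folds were 4.50 and 4.61 in mitotic 1 and 2. Oct4 had a fold of 5.25 in mitotic 2 and of 4.57 in asynchronous cells, so at this start site the other factor was listed in both states. Klf4 was listed there in mitotic 1 and 3 (7.22 and 4.15) and asynchronous 1 and 2 (6.93 and 3.99). H3K27ac folds were 9.30 and 11.5 in mitotic 1 and 2 and 26.0 and 25.2 in asynchronous 1 and 2.

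Windows with Sox cores, in capitals, were those of Dennd2c, an exchange factor for Rab GTPases (chr3:103127306-103127605, plus strand, where an Oct4 region at chr3:103127165-103127499 overlapped), and of Lpar1, a lysophosphatidic acid receptor (chr4:58499354-58499653, minus strand, inside a Sox2 region at chr4:58499266-58499777).
Dennd2c: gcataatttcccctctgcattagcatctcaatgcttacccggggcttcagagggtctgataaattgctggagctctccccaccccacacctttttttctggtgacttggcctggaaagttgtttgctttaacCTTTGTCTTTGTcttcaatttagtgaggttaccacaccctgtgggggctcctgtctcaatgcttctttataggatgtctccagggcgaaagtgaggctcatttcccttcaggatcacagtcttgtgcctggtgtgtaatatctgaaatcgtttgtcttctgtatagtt
Lpar1: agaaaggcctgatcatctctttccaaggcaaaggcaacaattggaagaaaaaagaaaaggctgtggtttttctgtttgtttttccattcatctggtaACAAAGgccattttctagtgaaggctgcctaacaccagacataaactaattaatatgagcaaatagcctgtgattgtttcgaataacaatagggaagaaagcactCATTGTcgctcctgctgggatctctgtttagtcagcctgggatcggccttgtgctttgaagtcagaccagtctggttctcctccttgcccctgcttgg
The Lpar1 region had Sox2 folds of 10.0 and 7.07 in mitotic 1 and 2, an Oct4 peak in mitotic 2 alone (fold 6.14), and no Klf4 or H3K27ac peak in any list. At Dennd2c Oct4 folds were 4.73 and 4.72 in mitotic 1 and 2 and Sox2 was listed in mitotic 1 (fold 4.52). Klf4 was listed at Dennd2c in mitotic 3 (8.08) and in asynchronous 1, 2 and 3 (6.55, 5.78 and 3.48), and H3K27ac in all 4 libraries (5.98 and 6.92 in mitotic, 21.0 and 18.9 in asynchronous cells). Of these 2 promoters, then, Dennd2c carried the active mark in both states and Lpar1 in neither.

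An Oct4 region at chr3:127544620-127545078 lay at the start of Gm51018, a noncoding gene within the span of Larp7, 0.149 kb before the hairpin of miR-302b. The hairpins of miR-302c, miR-302a, miR-302d and miR-367 follow within 0.654 kb of the region's edge. This microRNA cluster is expressed in pluripotent cells and is a known Oct4 and Sox2 target. The window of Gm51018 (chr3:127544839-127545138, plus strand) holds 1 Sox core, in capitals, here as ACAAAG.
Gm51018: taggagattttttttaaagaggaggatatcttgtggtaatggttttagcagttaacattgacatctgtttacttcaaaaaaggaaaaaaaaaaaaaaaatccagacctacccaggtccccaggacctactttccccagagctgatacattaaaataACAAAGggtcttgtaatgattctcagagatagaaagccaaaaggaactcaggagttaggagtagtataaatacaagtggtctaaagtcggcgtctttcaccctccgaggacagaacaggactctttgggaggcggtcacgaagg
Mature sequences of the cluster follow with the seed, bases 2 to 8, in capitals, to show which microRNAs the region adjoins.
miR-302b-3p: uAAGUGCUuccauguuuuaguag
miR-302d-3p: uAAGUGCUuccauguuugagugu
miR-302c-3p: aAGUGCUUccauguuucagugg
miR-367-3p: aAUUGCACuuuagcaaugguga
The first 2 share the seed AAGUGCU, the third carries the same letters 1 base earlier, and miR-367-3p has the seed AUUGCAC. Oct4 folds at the region were 5.00 and 9.64 in mitotic 1 and 2. Sox2 was listed there in both states, with folds of 8.33 and 5.72 in mitotic 1 and 2 and 6.59 in asynchronous cells, so the same place was kept for Sox2 and mitotic-only for Oct4. H3K27ac was listed in asynchronous 1 and 2 alone (folds 4.51 and 6.68), and Klf4 in none of the 6 stem cell lists.

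Members had lower folds than kept regions. Median Oct4 folds of mitotic-only regions were 5.05 and 5.95 in mitotic 1 and 2, against 5.78 and 8.67 at the 820 kept Oct4 regions, which had a peak in all 3 lists. Median Sox2 folds were 5.95 and 5.09 at mitotic-only regions, against 8.56 and 5.99 at the 1217 kept Sox2 regions. Mitotic-only regions were also narrower than kept ones, with a median of 334 bp against 494.5 bp for Oct4 and 368 bp against 431 bp for Sox2. Across the 294 Oct4 members the folds of mitotic 1 and 2 had a Pearson r of 0.223 and a Spearman rho of 0.352, and across the 422 Sox2 members 0.365 and 0.318, over regions that share libraries. Lost regions, listed in asynchronous cells alone (1207 for Oct4 and 845 for Sox2), were narrower still, at medians of 239 and 162 bp. This order is partly built in, because a region spans all of its merged peaks. Kept regions joined peaks of 3 lists, mitotic-only regions of 2 and lost regions of 1. How much of the order came from this was not tested. Wider regions meet other peaks more often by construction, which bears on every overlap below. With every region replaced by 200 bp about its midpoint, most of the H3K27ac differences given below shrank, as stated there, and those of Klf4 kept within 1.5 times their values.

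Many members stood close to the limit of listing, a −log10 p of 5. Just inside it, with a −log10 p under 5.5, were 27 Oct4 members in mitotic 1 and 12 in mitotic 2, and 14 Sox2 members in mitotic 1 and 138 in mitotic 2. All of those 138 had a q above 0.05 in Sox2 mitotic 2, as did 37 Oct4 members in mitotic 1. Just outside the rule stood 26 kept Oct4 and 26 kept Sox2 regions whose asynchronous peak had a −log10 p under 5.5. How near an asynchronous site came to being listed cannot be read from the lists: they held 41.2% of the numbered peaks for Oct4 asynchronous and 33.5% and 55.1% for its mitotic 1 and 2. For Sox2 they held 46.0% and 39.8% in mitotic 1 and 2 and 20.2% in asynchronous cells. Oct4 mitotic 1 and 2 are numbered as in the labels, while their peak names carry the opposite numbers. An asynchronous peak of the same factor lay within 1 kb of 2 Oct4 and 4 Sox2 members, and within 20 kb of 43 and 46.

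The lists were of unequal length, 1246 and 5282 peaks for Oct4 in mitosis against 3347 in asynchronous cells, and 4537 and 1940 for Sox2 against 2986. The 6 Klf4 lists held 3795 to 21307 peaks and the 4 H3K27ac lists 30771 to 47475, and read depth was unknown. The counts of members rested on single libraries. Without Oct4 mitotic 1, when a peak in mitotic 2 sufficed, 3182 Oct4 regions were mitotic-only, and without mitotic 2 there were 383. Without Sox2 mitotic 1 there were 645 and without mitotic 2 2484. With lists of equal length 193 Oct4 regions were mitotic-only, and at a −log10 q minimum of 2 there were 189. In bulk libraries a lower fold can come from fewer bound cells or from less factor per cell, and these cannot be told apart.

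The 40 regions that were mitotic-only for both factors had diverse neighbours, such as Mycn, a Myc family gene, Klf6, a Klf family gene, Ptch1, the Hedgehog receptor, and Insc, which orients the mitotic spindle. Of the 40, 28 had a Klf4 or H3K27ac peak in an asynchronous list, 25 of them a Klf4 peak. H3K27ac was listed in all 4 libraries at 12, in both asynchronous and no mitotic list at 6 and in none at 20. There was none with H3K27ac in a mitotic list alone. Klf4 was listed in all 6 lists at 2, by Arid5b and Commd1, and in none at 9. Among these 9, 6 regions, by Cartpt, Cdh12, Dnajb6, Ctnna2, Cyp2b19 and Mak16, also had no H3K27ac peak in any list. By position 14 of the 40 lay inside a gene and 9 more than 100 kb from the nearest protein-coding one.

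**Figure D1:**
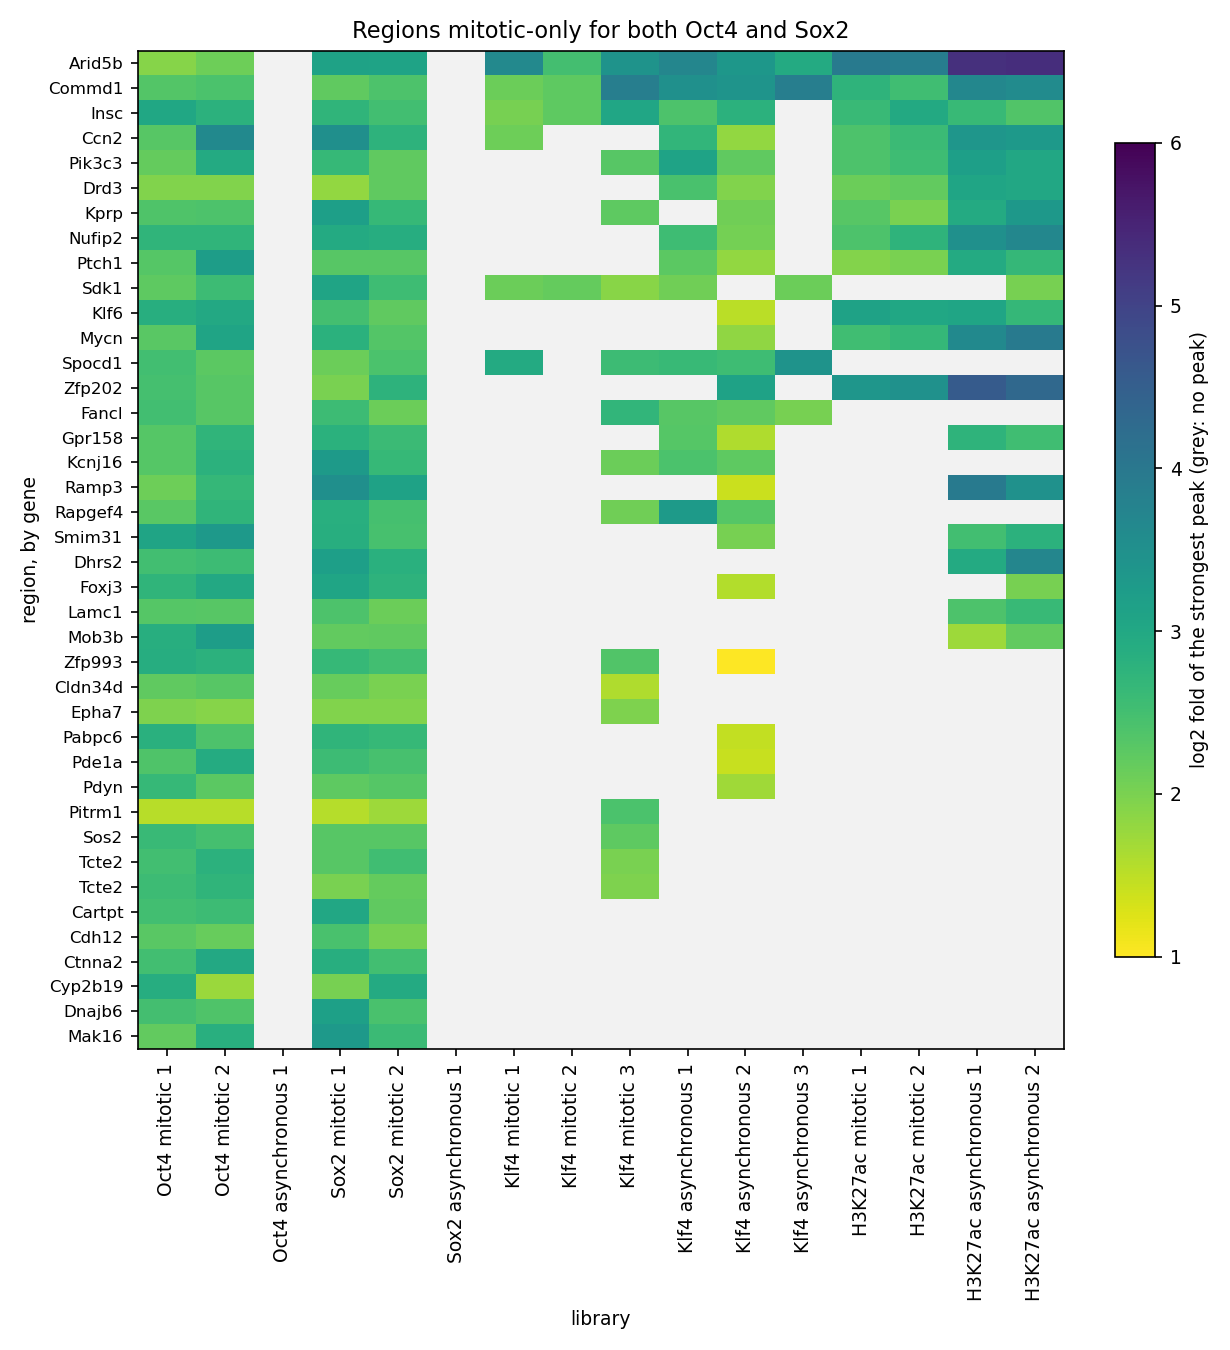
Fold of the strongest peak (log2, colour; grey where no peak was listed) in the 16 stem cell libraries at the 40 regions that were mitotic-only for both Oct4 and Sox2, a row per region named by its nearest protein-coding gene. The top rows carry Klf4 and H3K27ac peaks in most libraries, and the lowest 6 rows carry none.

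The highest-ranked region of both sets lay inside Foxj3, a forkhead factor gene (chr4:119592430-119592918). Oct4 folds there were 6.60 and 7.95 and Sox2 folds 8.33 and 6.80 in mitotic 1 and 2. Klf4 (fold 2.98) and H3K27ac (fold 4.07) were each listed in asynchronous 2 alone, so no other mitotic library listed it. The next lay 12 kb from Nufip2, an RNA-binding protein gene (chr11:77673510-77673986), with Oct4 folds of 6.60 and 6.60 and Sox2 folds of 7.65 and 7.34 in mitotic 1 and 2. H3K27ac folds at Nufip2 were 5.23 and 6.75 in mitotic 1 and 2 and 11.2 and 12.8 in asynchronous 1 and 2. This region carried H3K27ac in both states while both factors were listed in mitosis alone.

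At Insc (chr7:114740598-114741054) Oct4 folds were 8.17 and 6.91 and Sox2 folds 6.63 and 5.70 in mitotic 1 and 2. Klf4 folds were 4.05, 4.72 and 8.2 in mitotic 1, 2 and 3 and 5.24 and 6.91 in asynchronous 1 and 2, with no peak in asynchronous 3. H3K27ac folds were 6.11 and 7.78 in mitotic 1 and 2 and 6.18 and 5.12 in asynchronous 1 and 2, so Klf4 and the mark were listed in both states here. Inside Arid5b, which encodes an ARID-domain DNA-binding protein (chr10:68137373-68137760), Sox2 folds were 8.65 and 8.61 and Oct4 folds 3.77 and 4.32 in mitotic 1 and 2. Klf4 folds at Arid5b were 12.5, 5.65 and 10.8 in mitotic 1, 2 and 3 and 13, 10.2 and 7.70 in asynchronous 1, 2 and 3. H3K27ac folds were 15.4 and 14.7 in mitotic 1 and 2, below 39.7 and 40.8 in asynchronous 1 and 2. The other named regions of both sets lay by Dhrs2, Ctnna2, Zfp993, Smim31, Pabpc6, Pde1a, Kprp, Dnajb6 and Kcnj16.

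The strongest Oct4 members lay by genes of varied roles. Inside Slc18b1, a vesicular polyamine transporter gene (chr10:23813064-23813556), Oct4 folds were 9.35 and 11.3 in mitotic 1 and 2. Sox2 was listed there with folds of 10.4 and 6.53 in mitotic 1 and 2 and 6.59 in asynchronous cells. H3K27ac folds were 12.3 and 14.0 in asynchronous 1 and 2, with no mitotic peak, and Klf4 was listed in asynchronous 1 and 2 (folds 5.39 and 3.99). Slc18b1 was thus a site of Sox2, Klf4 and H3K27ac in asynchronous cells at which only Oct4 was confined to mitotic lists.

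At Adra1a, an adrenergic receptor gene (chr14:66762690-66763156), Oct4 folds were 8.43 and 13.3 in mitotic 1 and 2, with Klf4 (4.62 and 4.50) and H3K27ac (11.2 and 10.3) listed in asynchronous 1 and 2 and in no mitotic list. At Pdgfc, a platelet-derived growth factor gene (chr3:81034699-81035317), Oct4 folds were 7.75 and 8.63 in mitotic 1 and 2, and H3K27ac folds were 17.6 and 20.2 in asynchronous 1 and 2 with no mitotic peak. The Suz12 region (chr11:79980589-79981068), 12.3 kb from this gene of a Polycomb repressive complex 2 subunit, had Oct4 folds of 6.83 and 10.2 in mitotic 1 and 2. Sox2 was kept there, with folds of 8.33 and 10.6 in mitotic 1 and 2 and 8.75 in asynchronous cells. H3K27ac at Suz12 was again listed in asynchronous cells alone (22.2 and 13.3). These 3 regions had in common that Oct4 was listed in mitosis where the active mark was not.

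Inside Tbx20, a T-box gene of the heart (chr9:24745010-24745347), Oct4 folds were 12.1 and 8.90 in mitotic 1 and 2. Sox2 mitotic 2 (8.75) and Klf4 mitotic 3 (9.77) were the only other lists with a peak, both mitotic and with the title code EC-EA-3702. The −log10 p at Tbx20 was 19.6 in both Oct4 mitotic 2 and Sox2 mitotic 2. A single input library of mitotic cells carries that code, and its part in such joint listings was not tested. The remaining 5 of the 10 strongest lay by Smim31, Mob3b, Efhd1, Klf6 and Chd9, a chromodomain helicase gene, and H3K27ac was listed in both asynchronous libraries at each of them. The region 51.5 kb from Klf4 itself (chr4:55475349-55475891) had Oct4 folds of 6.78 and 7.24 in mitotic 1 and 2. Sox2 folds were 12.8 and 7.78 in mitotic 1 and 2 and 11.9 in asynchronous cells, and H3K27ac folds were 16.6 and 20.2 in mitotic and 44.5 and 36.6 in asynchronous 1 and 2. Klf4 was listed there in mitotic 2 and 3 (4.70 and 4.57) and asynchronous 1 and 2 (5.5 and 6.38), so Oct4 alone was confined to the mitotic lists. The other Oct4 members with Klf4 in at least 2 and H3K27ac in both mitotic lists that ranked highest lay by Fbxw10, Insc, Ndufs4 and Rab29.

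Among Sox2 members the highest rank was 20.2 kb from Eps8, an actin regulator gene (chr6:137669381-137669829), with Sox2 folds of 13.1 and 9.02 in mitotic 1 and 2. Oct4 was listed in mitotic 2 (5.40), and H3K27ac had folds of 8.72 and 4.31 in mitotic 1 and 2 and 23.4 and 15.5 in asynchronous 1 and 2. At Pdk1, a pyruvate dehydrogenase kinase gene (chr2:71866611-71867051), Sox2 folds were 14.5 and 8.68 in mitotic 1 and 2. H3K27ac was listed there in all 4 libraries, with folds of 5.81 and 5.76 in mitotic and 4.70 and 6.38 in asynchronous 1 and 2, and neither Oct4 nor Klf4 was listed.

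Some strong Sox2 members were Oct4 sites of both states. Inside Cntnap4, a neuronal adhesion gene (chr8:112695702-112696083), Sox2 folds were 9.35 and 8.41 in mitotic 1 and 2, while Oct4 folds were 9.81 and 14.0 in mitotic 1 and 2 and 9.87 in asynchronous cells. Inside Znrf1, a ubiquitin ligase gene (chr8:111613108-111613581), Sox2 folds were 11.6 and 7.68, and Oct4 folds were 9.02 and 13.8 in mitotic 1 and 2 and 6.21 in asynchronous cells. Klf4 was listed at Znrf1 in all 6 libraries, with folds of 10.4, 3.93 and 14.7 in mitotic and 7.54, 8.18 and 3.88 in asynchronous 1, 2 and 3. At Pard3b, a cell polarity gene (chr1:62398260-62398725), Oct4 was likewise listed in all 3 of its lists, and H3K27ac in none. The region inside Fgd4, an exchange factor gene for Cdc42 (chr16:16566745-16567249), had the highest Sox2 fold of the 422 in mitotic 1, 17.5, with 7.61 in mitotic 2 and no peak of another antibody in any list. The other regions of this rank lay by Ramp3, Pot1a, Gnai1 and Arid5b.

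Sox2 was listed at many Oct4 members, in both states. Its share of the 294 Oct4 members with a peak was 60.9% and 51.4% in mitotic 1 and 2 and 38.1% in asynchronous cells. At kept Oct4 regions it was 80.2% and 64.6% in mitotic and 69.5% in asynchronous cells. The mitotic mean exceeded the asynchronous value by 18 percentage points at mitotic-only regions, and with 2 against 1 libraries the smallest exact permutation p is 0.33, which it reached (adjusted p = 0.6 over the 6 comparisons of state). This difference was larger by 15.1 points at mitotic-only than at kept regions (exact two-sided permutation, p = 0.33, adjusted p = 0.33). When the set was made without Oct4 mitotic 1 these values were 7.56 and 7.53 points. Of the 294, 81 overlapped a kept Sox2 region, 42 a mitotic-only one, 8 a lost one, and 79 none at all. A further 23 overlapped a Sox2 region listed in asynchronous cells and 1 mitotic list, and 61 one listed in 1 mitotic list alone. Sox2 was in all of its lists at 27.6% of members, 53.7% of kept and 1.82% of lost Oct4 regions. It was in both mitotic lists alone at 14.3%, 8.17% and 0.83%, and in no list at 26.9%, 13.2% and 82.0%.

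Oct4 at the 422 Sox2 members was listed at 28.4% and 59.0% in mitotic 1 and 2 and at 28.0% in asynchronous cells. At kept Sox2 regions the values were 43.8% and 74.0% in mitotic and 54.2% in asynchronous cells. The mitotic minus asynchronous difference at members was 15.8 points (exact permutation p = 0.667, adjusted p = 0.667), and it was 0.474 without Oct4 mitotic 2 and 31.0 without Oct4 mitotic 1. Compared with kept regions it was larger by 11.1 points (exact p = 0.33). With the set made without Sox2 mitotic 2 the values were 5.45 and 6.50 points. The members overlapped 68 kept Oct4 regions, 41 mitotic-only and 10 lost ones, 42 listed in asynchronous cells and 1 mitotic list and 109 in 1 mitotic list alone, and 153 had no Oct4 peak in any list. Oct4 was in all of its lists at 16.1% of members, 36.0% of kept and 3.55% of lost Sox2 regions. It was in both mitotic lists alone at 9.72%, 6.82% and 0.947%, and in no list at 36.3%, 23.0% and 71.4%.

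**Figure D2:**
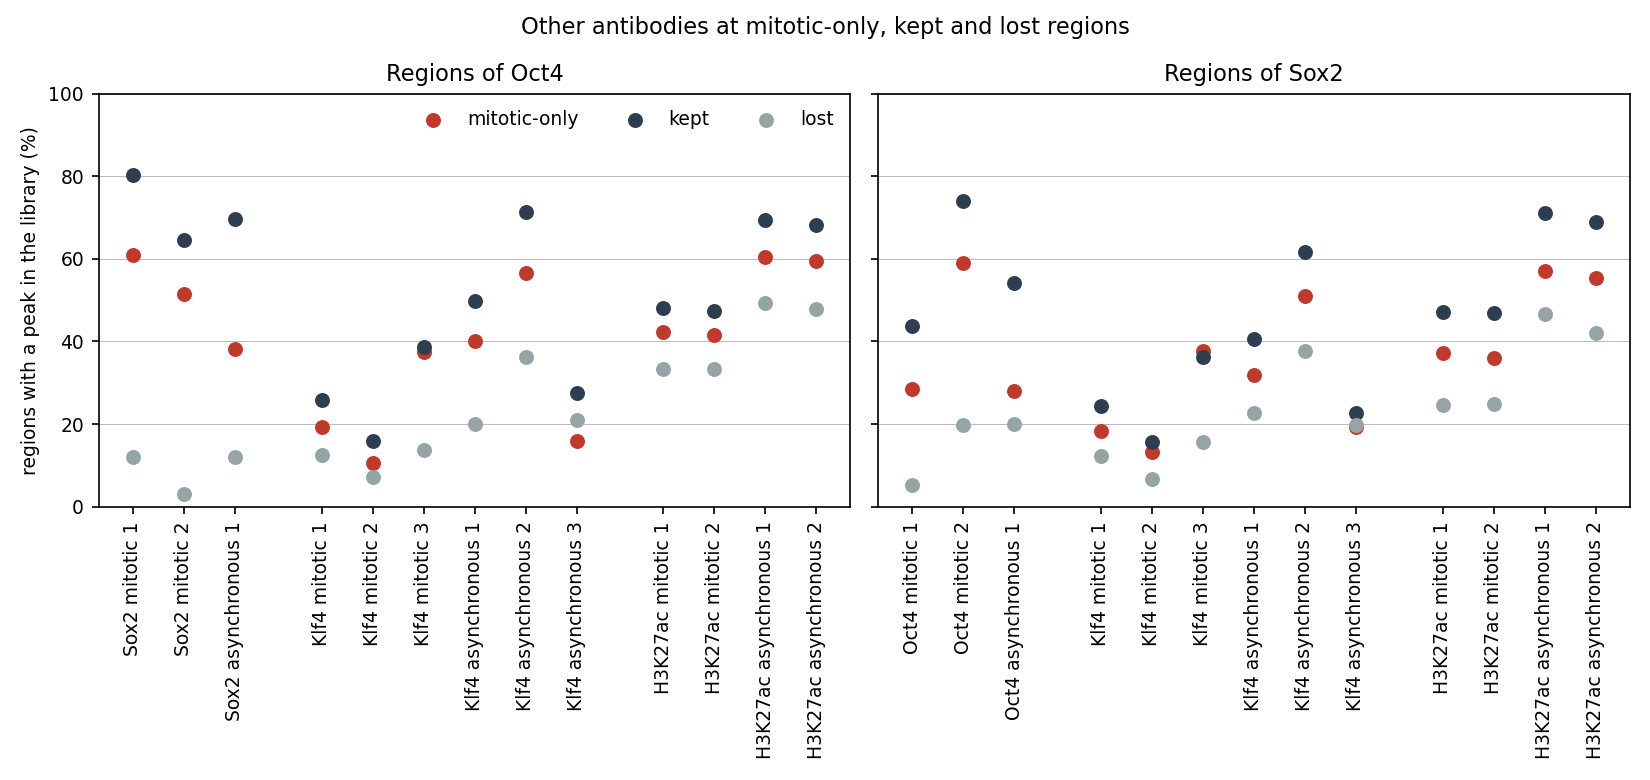
Percent of regions with a peak of each other library at mitotic-only, kept and lost regions of Oct4 (left) and Sox2 (right), a point per library, with mitotic libraries left of asynchronous ones for each antibody. Mitotic-only regions sit between kept and lost ones in most libraries, and at or next to the kept ones in Klf4 mitotic 3 (37.4% of Oct4 and 37.7% of Sox2 members).

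Klf4 was listed at a minority of members in most libraries. Of the Oct4 members 19.4%, 10.5% and 37.4% had a Klf4 peak in mitotic 1, 2 and 3, against 40.1%, 56.5% and 16.0% in asynchronous 1, 2 and 3. Their means were 22.4% ± 13.7 in mitotic and 37.5% ± 20.4 in asynchronous libraries (SD, n = 3 each). The difference of −15.1 points was within the spread of the libraries, which overlapped between states (exact two-sided permutation, p = 0.4, adjusted p = 0.6, where 3 against 3 libraries allow no p below 0.1). Of the Sox2 members 18.2%, 13.3% and 37.7% had a Klf4 peak in mitotic 1, 2 and 3, against 31.8%, 50.9% and 19.2% in asynchronous 1, 2 and 3. That difference was −10.9 points (exact permutation p = 0.5, adjusted p = 0.6), again with overlap. With lists of equal length the differences were 1.73 and 0.207 points. Single libraries moved them widely: the Oct4 set gave −5.61 without Klf4 asynchronous 2, −9.13 without mitotic 2 and −25.9 without asynchronous 3, and −8.21 when made without Oct4 mitotic 1. The Sox2 set gave −2.41 without Klf4 asynchronous 2, −6.00 without mitotic 2, −18.2 without mitotic 3 and −18.3 without asynchronous 3.

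Within the title code EC-EA-3702, the only one with Klf4 in both states and the one the Oct4 and Sox2 libraries share, the direction turned round. Klf4 mitotic 3 was listed at 37.4% of Oct4 members and asynchronous 3 at 16.0%, a difference of 21.4 points, and at Sox2 members the difference was 18.5 points. The same pair of libraries differed by 11 and 13.5 points at kept Oct4 and Sox2 regions and by −7.29 and −4.14 points at lost ones. With 1 library per state under that code there is no test. Klf4 mitotic 3 was the only Klf4 list with a peak at 24 Oct4 members (8.16%), against 1.34% of kept and 0.497% of lost Oct4 regions, and at 17 Sox2 members (4.03%), against 2.14% of kept and 0.947% of lost Sox2 regions.

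**Figure D3:**
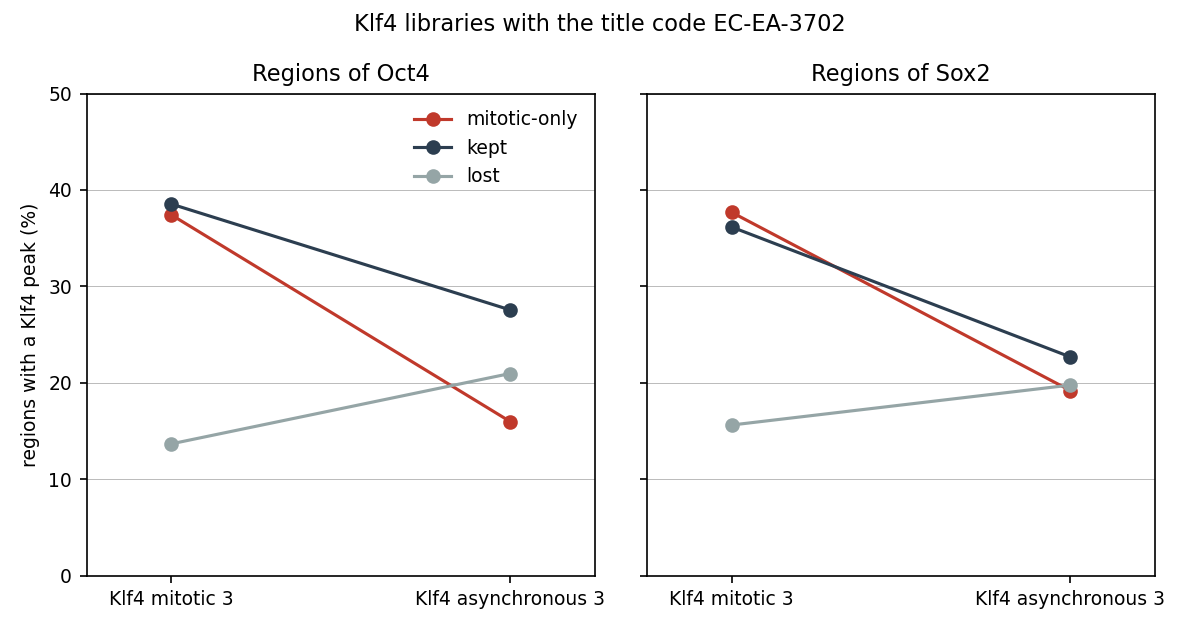
Percent of mitotic-only, kept and lost regions of Oct4 (left) and Sox2 (right) with a peak in Klf4 mitotic 3 and Klf4 asynchronous 3, the pair of Klf4 libraries with the title code EC-EA-3702. Lines fall to the right for mitotic-only regions (37.4% and 16.0% for Oct4) and kept regions, and rise for lost ones.

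Regions listed for all 3 factors in the mitotic libraries of that code, and for none in its asynchronous ones, numbered 14 in the Oct4 set (4.76%) and 13 in the Sox2 set (3.08%). By the other factor and Klf4 alone, the same pattern held at 2.44% of kept and 0.249% of lost Oct4 regions. For Sox2 regions these shares were 1.64% and 0.237%. The 14 and 13 regions were picked out after their values were seen. In the Oct4 set, 8 of the 14 had no peak in any other Klf4 or H3K27ac list, and these lay by Sos2, Pitrm1, Epha7, Cldn34d and, as 4 pieces of chr17:13589791-13591665, about 125 kb from Tcte2. The 4 pieces belong to a single stretch and were counted separately. At Epha7 (chr4:28176773-28177125) Oct4 folds were 3.91 and 3.73, Sox2 folds 3.84 and 3.88 and the Klf4 mitotic 3 fold 3.90. The −log10 p at Epha7 was 10.7 in each of Oct4 mitotic 1, Sox2 mitotic 2 and Klf4 mitotic 3. A single mitotic input library carries this title code, and its part in these joint listings was not tested. The other 6 lay by Kcnj16, Pik3c3, Rapgef4, Kprp, Zfp993 and Insc, and each had a Klf4 peak in an asynchronous library of another code.

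Klf4 at members was listed less often than at kept regions of the same factor in most libraries. At Oct4 members the difference from kept regions averaged −8.16 points and ran from −14.8 to −1.12, lower in 6 of 6 libraries (exact two-sided sign-flip test over libraries, p = 0.031, adjusted p = 0.13 over the 4 such comparisons). At Sox2 members it averaged −4.98 points, from −10.7 to 1.52 (exact sign-flip p = 0.0625, adjusted p = 0.13). All libraries were read over the same fixed regions, so neither p covers the choice of regions. The mean differences from kept regions became −14.2 with the set made without Oct4 mitotic 1, and −8.48 and −12.9 without Sox2 mitotic 1 and 2. Against lost regions, in a comparison added after the data were seen, Klf4 was listed more often by 11.6 points at Oct4 and 9.38 points at Sox2 members (exact sign-flip p = 0.09375 and 0.0625, adjusted p = 0.13 for both). The classes were not equally strict, since members needed a peak in 2 mitotic lists and lost regions in the 1 asynchronous list. The difference from lost regions turned to −5.77 and −2.52 points when the set was made without Oct4 mitotic 1 or Sox2 mitotic 2. A peak in 1 mitotic list then sufficed. For Sox2 the difference was 2.60 without mitotic 1. With lists of equal length it was 6.63 and 4.27. The gap to kept regions was smaller in mitotic than in asynchronous Klf4 libraries by 7.73 points at Oct4 and 5.31 points at Sox2 members (exact permutation p = 0.1 and 0.2, adjusted p = 0.33 for both), also in a comparison added later. For Sox2 this was 3.39 without Klf4 mitotic 3 and 3.44 at a −log10 q minimum of 2. Klf4 itself was mitotic-only, with a peak in at least 2 mitotic and no asynchronous lists, at 4 Oct4 members (1.36%) and 3 Sox2 members (0.711%), against 0.122% of kept Oct4 and 0.657% of kept Sox2 regions. Of all 29460 merged Klf4 regions, each of which has a Klf4 peak by definition, 0.329% met the rule.

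H3K27ac was listed at more members in asynchronous than in mitotic cells. Of the Oct4 members 42.2% and 41.5% had an H3K27ac peak in mitotic 1 and 2, against 60.5% and 59.5% in asynchronous 1 and 2. Of the Sox2 members 37.2% and 36.0% had one in mitotic 1 and 2, against 57.1% and 55.5% in asynchronous 1 and 2. The groups did not overlap, at differences of −18.2 and −19.7 points, and p was the smallest that 2 against 2 libraries allow (exact two-sided permutation, p = 0.33, adjusted p = 0.6). Asynchronous and mitotic H3K27ac libraries had different title codes, so state and code cannot be told apart. When overlap had to cover at least 50% of the shorter interval, the differences were 0.850 and 0.118 points, and in 200 bp windows −11.2 and −12.4. They were −10.7 with the set made without Oct4 mitotic 1 and −12.8 without Sox2 mitotic 1. Kept and lost regions fell too, so the fall was not particular to members. Kept Oct4 regions had means of 68.8% in asynchronous and 47.7% in mitotic libraries, and lost ones 48.6% and 33.3%. For Sox2 these means were 69.9% and 47.0% at kept and 44.4% and 24.6% at lost regions. The mitotic lists were also shorter, with 36526 and 30771 peaks against 47475 and 46491.

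H3K27ac peaks reached into the regions to different extents in the 2 states. At Oct4 members with an H3K27ac peak, the peak shared a median of 64.8% and 82.8% of the shorter interval in mitotic 1 and 2, against 47.8% and 40.5% in asynchronous 1 and 2. At Sox2 members the medians were 77.4% and 100% in mitotic 1 and 2, against 45.7% and 41.1% in asynchronous 1 and 2. By these medians mitotic peaks, where present, thus shared more of the shorter interval than asynchronous peaks did. The shorter interval can be the peak or the region. The same order held at kept Oct4 regions, with 80.1% and 100% in mitotic and 51.1% and 45.3% in asynchronous libraries; this was examined after the data were seen and was not tested.

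The mark was also less frequent at members than at kept regions, with a mean difference of −7.36 points for Oct4 and −12.0 for Sox2, lower in 4 of 4 libraries (exact sign-flip p = 0.13, the smallest possible, adjusted p = 0.13). The Oct4 value was −22.7 and −15.5 with the set made without Oct4 mitotic 1 and 2, −3.03 with lists of equal length and −4.70 in 200 bp windows. The Sox2 value was −18.6 without Sox2 mitotic 2, −7.72 in 200 bp windows and −3.55 when 50% of the shorter interval had to overlap. Lost regions needed a peak in 1 list and members in 2. Against lost regions the mark was more frequent at members by 9.99 and 11.9 points (exact sign-flip p = 0.13, adjusted p = 0.13). This difference turned to −16.8 without Oct4 mitotic 1 and to −1.09 without Sox2 mitotic 2 in making the set. It also turned, to −4.15 and −0.592, when 50% of the shorter interval had to overlap, was 3.93 and 1.46 in 200 bp windows, and was 1.48 without Oct4 mitotic 2 and 0.0264 without Sox2 mitotic 1. For Oct4 it was 17.7 with lists of equal length. The gap to kept regions was smaller in mitotic than in asynchronous H3K27ac libraries by 2.90 and 3.26 points (exact permutation p = 0.33, adjusted p = 0.33), with the same limit of state and title code. For Oct4 this was 10.0 and 7.51 without Oct4 mitotic 1 and 2, and for Sox2 5.86 and 5.18 without Sox2 mitotic 1 and 2 and 0.295 in 200 bp windows. H3K27ac was mitotic-only, by both mitotic and no asynchronous lists, at 2 Oct4 members (0.680%) and 4 Sox2 members (0.948%). These shares were 0.488% and 0.575% of kept and 1.08% and 0.828% of lost regions. Of all 60680 merged H3K27ac regions, each with an H3K27ac peak by definition, 9.53% met the rule. Of the Oct4 members 106 (36.1%) had the mark in all 4 lists and 106 (36.1%) in none. Another 41 (13.9%) had it in both asynchronous lists and no mitotic one. In this order the shares were 41.6%, 26.6% and 16.7% of kept and 27.6%, 46.1% and 11.8% of lost Oct4 regions. Of the Sox2 members the numbers were 127 (30.1%), 155 (36.7%) and 66 (15.6%). Kept Sox2 regions had 39.6%, 24.7% and 16.6%, and lost ones 18.2%, 47.7% and 15.0%. The mark in asynchronous lists alone was thus no more common at members than at kept regions.

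Where H3K27ac was listed, its folds differed between states in the same direction. The median fold at Oct4 members with a peak was 5.92 and 6.19 in mitotic 1 and 2, against 12.5 and 12.3 in asynchronous 1 and 2. At Sox2 members it was 5.81 and 6.05 in mitotic and 10.9 and 10.3 in asynchronous libraries. Kept regions had medians of 7.02 and 7.21 in mitotic and 13.7 and 12.3 in asynchronous libraries for Oct4. Folds of different libraries are not on a common scale, as their depth is unknown.

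Most members were listed for another antibody in asynchronous cells. A peak of the other factor, Klf4 or H3K27ac stood in at least 1 asynchronous list at 240 of 294 Oct4 members (81.6%, 95% Wilson interval 76.8 to 85.6), against 95% of kept and 64.1% of lost Oct4 regions. At Sox2 members it was 331 of 422 (78.4%, 74.3 to 82.1), against 91.9% of kept and 67.1% of lost regions. These intervals cover counting error only. Another 37 Oct4 members (12.6%) and 49 Sox2 members (11.6%) had peaks of other antibodies in mitotic lists alone. This held for 3.17% and 4.35% of kept and 3.56% and 4.50% of lost Oct4 and Sox2 regions. Finally 17 Oct4 members (5.78%) and 42 Sox2 members (9.95%) had none in the 13 other stem cell lists. The same was true of 1.83% and 3.70% of kept and 32.3% and 28.4% of lost Oct4 and Sox2 regions. No test was made on these shares, which rest on the same few libraries. Lost regions needed a peak of their factor in 1 list and members in 2, so these classes were not equally strict.

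Neighbouring genes were taken as protein-coding genes within 20 kb of a member. An Oct4 member lay so near to 245 of 21887 genes (1.12%), a Sox2 member to 284 (1.30%) and a member of either set to 491 (2.24%). Of 224 genes in 8 lists, 13 (5.80%) had a member of either set nearby, 10 an Oct4 and 4 a Sox2 member. Naive pluripotency genes accounted for 4 of 34 in the Oct4 set (Sox2, Spp1, Tbx3 and Klf2) and 1 of 34 in the Sox2 set (Sall4). Chromatin regulators accounted for 2 of 32 in each, Suz12 and Jarid2 for Oct4 and Jarid2 and Dido1 for Sox2. None of 32 genes of the mitotic machinery and none of 19 neural progenitor genes had a member of either set. Feeder fibroblast markers had 1 of 20, Lum, and a part of feeder cells in the result was not tested. The lists were compiled with earlier results of these data known, so these counts describe and test nothing.

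The naive pluripotency genes with Oct4 members were listed for Sox2 or Klf4 in asynchronous cells. At Klf2, a Klf family gene of naive cells (chr8:72316114-72316527, 2.74 kb from the gene), Oct4 folds were 6.44 and 6.20 in mitotic 1 and 2. Sox2 folds at Klf2 were 10.6 and 9.60 in mitotic 1 and 2 and 7.86 in asynchronous cells. Klf4 was listed at Klf2 in mitotic 1 and 3 (4.65 and 4.31) and asynchronous 1 and 2 (8.66 and 7.25). The Klf2 region was thus kept for Sox2 and mitotic-only for Oct4. At Spp1, the osteopontin gene (chr5:104442927-104443303, 2.06 kb away), Oct4 folds were 5.23 and 5.51 in mitotic 1 and 2, and Sox2 folds were 17.2 and 8.14 in mitotic and 10.4 in asynchronous cells. Klf4 was listed at Spp1 in all 6 libraries.

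Inside Tbx3, a T-box gene of naive cells (chr5:119679839-119680186), Oct4 folds were 5.43 and 5.76 in mitotic 1 and 2, and Sox2 folds were 7.19 and 7.30 in mitotic and 7.99 in asynchronous cells. H3K27ac at Tbx3 had folds of 6.61 and 9.13 in mitotic 1 and 2 and 30.1 and 27 in asynchronous 1 and 2. These regions repeat the pattern of Klf2. The region 16.2 kb from Sox2 (chr3:34668498-34668769) was among the weakest, with Oct4 folds of 3.97 and 4.30 in mitotic 1 and 2 and a Sox2 fold of 3.99 in mitotic 1 alone. Inside Sall4, a zinc finger gene of pluripotent cells (chr2:168762679-168762948), Sox2 folds were 4.27 and 4.82 in mitotic 1 and 2, with no Oct4 or Klf4 peak in any list. H3K27ac at Sall4 was listed in all 4 libraries, at 14.2 and 16.1 in mitotic and 31.4 and 33.3 in asynchronous 1 and 2.

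**Figure D4:**
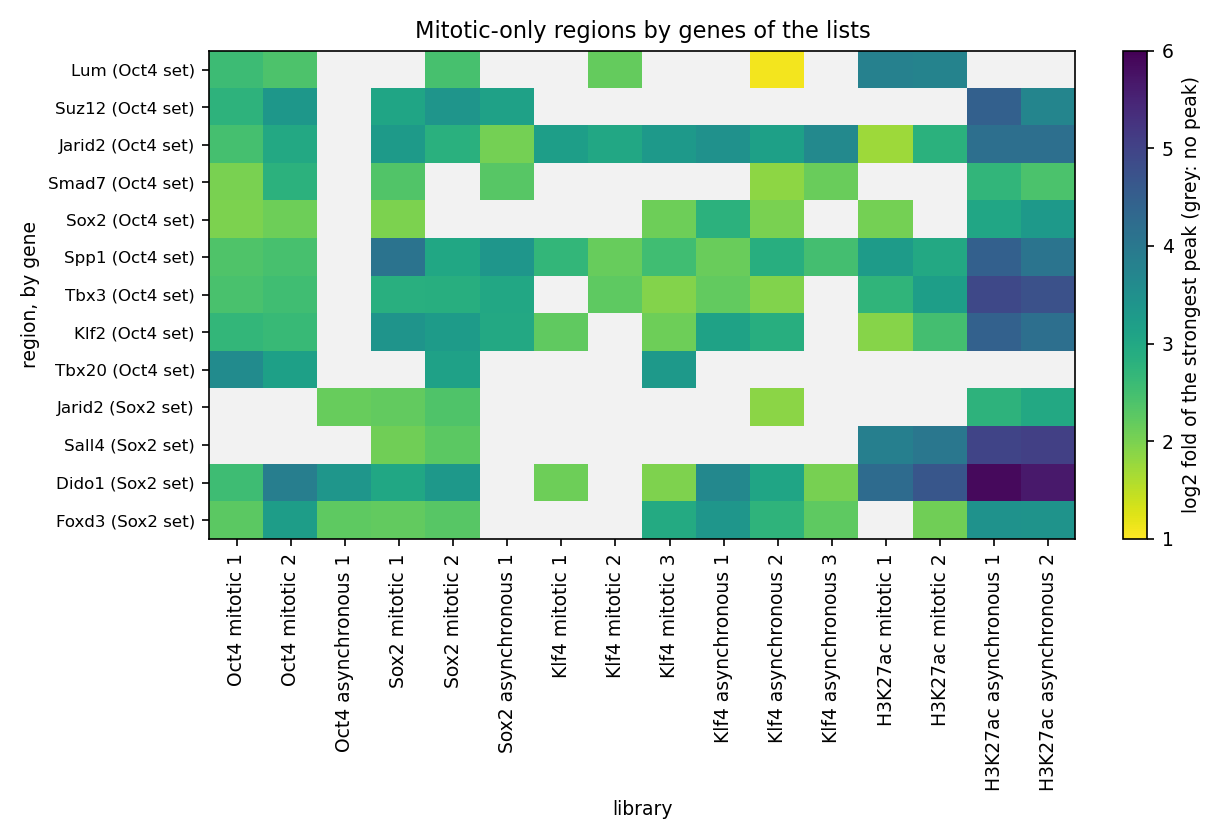
Fold of the strongest peak (log2, colour; grey where no peak was listed) in the 16 stem cell libraries at 13 mitotic-only regions within 20 kb of genes of the lists, a row per region. H3K27ac is listed in asynchronous libraries at all rows except those of Lum and Tbx20.

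Jarid2, a Polycomb repressive complex 2 cofactor gene, had a member of each set at different places. The Oct4 region (chr13:44722151-44722732, 8.33 kb away) had Oct4 folds of 5.58 and 7.91 in mitotic 1 and 2, and Sox2 folds of 9.66 and 7.10 in mitotic and 4.14 in asynchronous cells. Klf4 was listed at it in all 6 libraries, at 9.16, 8.05 and 9.85 in mitotic and 11.1, 8.91 and 12.5 in asynchronous 1, 2 and 3. The Sox2 region, inside the gene (chr13:44851475-44851781), had Sox2 folds of 4.59 and 5.19 in mitotic 1 and 2 and an Oct4 peak in asynchronous cells alone (4.49). The factors were thus listed in opposite states at this second place, by peaks near the limit of listing. Their −log10 p was 5.40 for Oct4 and 5.91 and 6.50 for Sox2 in mitotic 1 and 2.

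At Dido1, a chromatin-binding protein gene (chr2:180708991-180709388), Sox2 folds were 8.13 and 10.0 in mitotic 1 and 2, and Oct4 folds were 5.85 and 14.5 in mitotic and 10.4 in asynchronous cells. H3K27ac folds at Dido1 were 19.2 and 25.3 in mitotic and 59.0 and 50.4 in asynchronous 1 and 2, the highest of the Sox2 members in the asynchronous libraries. At Foxd3, a forkhead gene of early embryonic lineages (chr4:99641904-99642349, 14.2 kb away), Sox2 folds were 4.59 and 4.92 in mitotic 1 and 2, and Oct4 folds were 4.77 and 9.30 in mitotic and 4.70 in asynchronous cells. Dido1 and Foxd3 were thus kept for Oct4. The Lum region (chr10:97563056-97563308) differed from all of these: H3K27ac folds were 14.0 and 13.5 in mitotic 1 and 2 with no asynchronous peak, and Oct4 folds were 5.91 and 5.26. The Oct4 member near Smad7, an inhibitor of Tgf-beta signalling, had Oct4 folds of 4.04 and 6.95 in mitotic 1 and 2. Its peak in Oct4 mitotic 1 stood near the limit of listing, with a −log10 p of 5.02 and a q above 0.05. So did the Sox2 mitotic 2 peak at Foxd3, with a −log10 p of 5.39 and a q above 0.05.

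Members lay far from start sites, as kept regions did. The median distance to the nearest RefSeq start site was 24.4 kb for Oct4 members, 24.5 kb for kept and 14.5 kb for lost Oct4 regions. It was 33.5 kb for Sox2 members, 28.2 kb for kept and 18.8 kb for lost Sox2 regions. Promoter windows were met by 2.11% of Oct4 members, 3.28% of kept and 11.7% of lost Oct4 regions, and by 0.976% of Sox2 members, 1.88% of kept and 4.44% of lost Sox2 regions. Of the members 41.8% (Oct4) and 35.3% (Sox2) had their midpoint inside a protein-coding gene. Start sites on chromosome 18 were not used here. Few members lay together, since 10 Oct4 and 7 Sox2 members were within 1 kb of another member of their set.

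**Figure D5:**
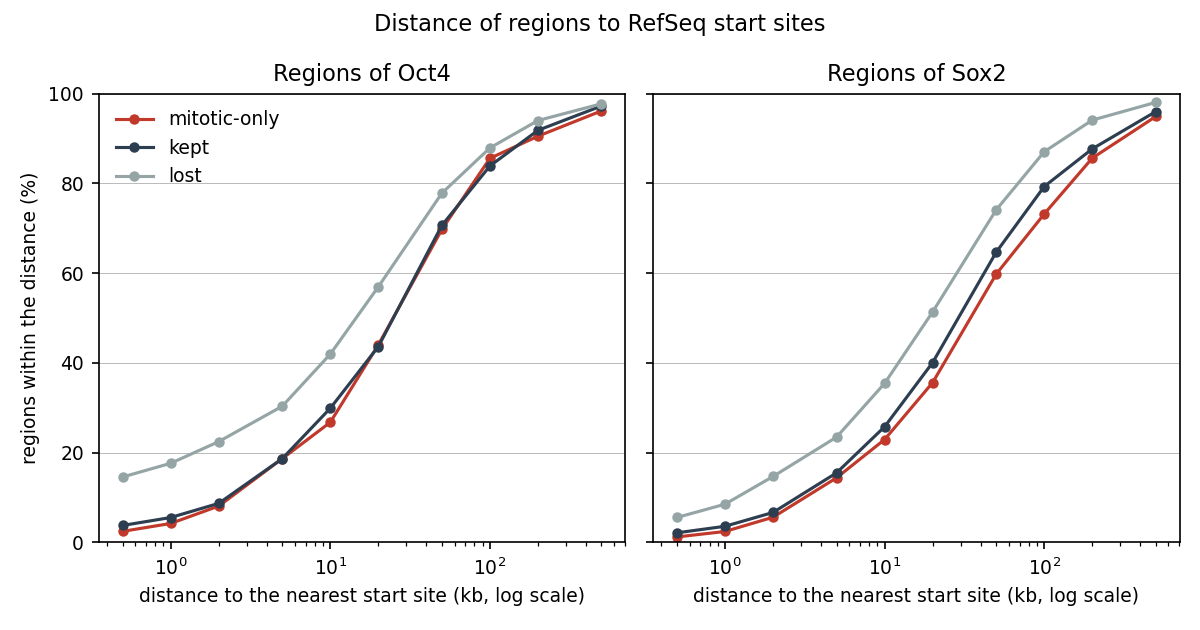
Percent of mitotic-only, kept and lost regions of Oct4 (left) and Sox2 (right) within a given distance (kb, log scale) of a RefSeq start site. The mitotic-only and kept curves run close together, and the lost curve lies above both: within 1 kb it holds 17.6% of lost Oct4 regions, against 4.23% of mitotic-only ones.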

How the data were processed

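Per the submitters' processing notes, reads were handled with cutadapt 1.8.1, Bowtie2 2.2.5, deepTools 2.3.6 and MACS2 2.1.1 on mm10. The deposited narrowPeak lists, 1 per library, hold for each peak the authors' fold (a ratio of signal to background), its p and q as −log10 values, and no summit. Of 24 samples, 17 had lists, and 7 input libraries were not analysed here. Read depth was not given. From the lists, regions were merged per factor (at least 1 bp shared) in Python 3.11.15 (pandas 2.3.3, numpy 2.4.6), and the percent of regions with a peak was taken per library. States were compared by exact two-sided permutation over libraries, and classes of regions by exact sign flips over libraries, with Benjamini-Hochberg adjustment per family (scipy 1.17.1). The functions were tested on simulated data. The comparisons with lost regions and between states of the kept difference were added after the data were seen. The members and the gene lists were chosen with earlier results of these data known.

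Named regions were up to 12 in both sets and 10 per factor by the lower percentile of fold within the mitotic lists, up to 5 per factor with Klf4 in 2 mitotic and H3K27ac in both mitotic lists, and all within 20 kb of a listed gene. Promoters, microRNAs and 21887 protein-coding genes came from RefSeq tables (GRCm38.p6). All 224 listed genes matched by symbol. Genome sequence outside promoters was not used here. Figures were drawn with matplotlib 3.10.9. A region near a listed gene is not reported here.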

Additional observations from a re-analysis of the deposited data

Results flagged for a closer look

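The Klf4 list of the mixed sample (10% stem cells, 90% neural progenitor cells), which no comparison above uses, had a peak at 5 of the 294 Oct4 members (1.70%), more than the 3 counts that a count of 0 allows. The share was 0.122% of kept and 0.497% of lost Oct4 regions, 1 and 6 regions. The 5 members lay by Arid5b, Larp7 (the miR-302 region), Asxl3, Bcl11a and Tyrp1, with mix folds of 4.68, 4.40, 2.42, 3.79 and 1.75. At the region 927 kb from Bcl11a (chr11:25099956-25100338) Oct4 folds were 4.90 and 25.6 in mitotic 1 and 2 and no stem cell library of another antibody had a peak. In the mix list 98.0% of all peaks had a q above 0.05.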

How the results depend on the processing

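Of 262 recomputed values, 235 kept their direction or, for counts, stayed within 1.5 times, though many of the differences changed in size. Another 16 turned round, and 11 counts moved by over 1.5 times. No comparison passed an adjusted p of 0.05 in any setting, and none could have. The exact tests over so few libraries allow no adjusted p that low, so their outcome decides nothing. Directions are therefore compared here, and the cause of the changes was not tested. With −log10 q of at least 2, Oct4 members numbered 189, and the differences between states of the H3K27ac gap to kept regions were 7.39 (Oct4 set) and 5.06 (Sox2 set) points. With lists of equal length they numbered 193, the Klf4 differences between states were 1.73 (Oct4 set) and 0.207 (Sox2 set) points, and the differences between states of the gap to kept regions were −1.46 (H3K27ac, Oct4 set) and −1.35 (Klf4, Sox2 set). With an overlap of 50% of the shorter interval the H3K27ac differences between states were 0.850 and 0.118, those of the gap to kept regions −1.34 and −4.48, and those from lost regions −4.15 and −0.592. Within the title code EC-EA-3702 the Klf4 differences were 21.4 and 18.5. Leaving out single libraries gave 383 to 3182 Oct4 members, 645 to 2484 Sox2 members, 755 to 3459 in the union and 49 to 142 in both; without Sox2 mitotic 1 there were 64 in both, and without Sox2 mitotic 2 there were 78, with 2697 in the union. It gave differences from lost regions of −5.77 to 14.9 (Klf4) and −16.8 to 10.6 (H3K27ac) for Oct4, and of −2.52 to 11.4 and −1.09 to 12.4 for Sox2. The single asynchronous library of Oct4 or Sox2 cannot be left out. With the replicate number as a block, pairing H3K27ac libraries 1 and 2 across states, the differences were −18.2 and −19.7. Pairing cannot alter a difference of means, and 2 pairs allow no call, so this setting could change neither. The labels do not say that numbers mark shared cultures. Within 50 kb, listed genes near Sox2 members numbered 8 in place of 4.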
